A study of Mus musculus with 6 samples.

Results

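The Zfp genes are the mouse genes whose symbol is Zfp followed by a number, a naming series for zinc finger proteins. Their members were chosen by symbol alone, as the entries of the deposited table that hold no joined symbols and begin with Zfp and a number. This gave 97 of the 8078 entries. No expression value entered the rule, but earlier results of these data were known when the family was chosen. RNA was sequenced from horizontal basal cells, the reserve stem cells on the basement membrane of the olfactory epithelium, sorted by TdTomato fluorescence from 12-week-old mice labelled B6;KRT5-CreER;Ai9 fl(Stop)TdTomato. In these mice tamoxifen, given 2 weeks before the sort to animals of both groups, lets a Cre recombinase driven by the keratin 5 promoter switch on TdTomato, so any cell with that promoter active can carry the label. Of the 6 libraries, 3 came from uninjured epithelium and 3 from mice exposed for 8 h to methyl bromide gas at 180 ppm and taken 18 h later, here called injured. Each library pooled cells of several animals, and nothing in the labels ties an uninjured library to an injured one. Values are FPKM (fragments scaled for transcript length and for the size of the library), a level that can be compared between genes.

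A zinc finger is a short fold held together by a zinc ion. In the most common form, C2H2, fingers stand in rows and each reads a few bases of DNA, so that a long row recognises a long site. Many mouse Zfp proteins also carry a KRAB domain, which recruits the corepressor Trim28 and with it the histone methyltransferase Setdb1, and these proteins silence retroelements and guard imprinted genes. The name does not define a single function: Zfp36l2 has CCCH fingers that bind AU-rich elements in messenger RNA and lead to its decay, Zfp185 is a LIM protein of the actin cytoskeleton, Zfp598 is a ubiquitin ligase on collided ribosomes and Zfp207 binds microtubules and the checkpoint protein Bub3.

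The promoters of the members were searched for short motifs, and no motif searched but the GC box stood in most of them. Of the 97 members, 71 matched a promoter in the RefSeq table (build GRCm38.p6, from 250 bases before to 50 bases after the start, the start listed first for each gene), some of them by an older symbol. Among 14 motifs searched on both strands, one part of the recognition site known for Zfp143, a promoter-binding zinc finger protein, was TACANNTCC, where N is any base. It was chosen after the values were seen, no enrichment was tested, and most members lack it. It stood in 9 of the 71 promoters (12.7%), against 5.88% of the 5884 promoters of genes in the deposited table, 4.66% of all 27025 promoters and 65 of the 336 promoters (19.3%) of all RefSeq genes with a Zfp symbol. Windows of 7 of these members are shown as examples of the letters around the match, among them the 1 member, Zfp932, whose letters before it differ. The sequences run 5′ to 3′ in the direction of the motif, and capitals mark it.
Zfp14, chr7:30051380-30051428, minus strand, GRCm38.p6: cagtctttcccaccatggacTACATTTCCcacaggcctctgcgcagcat
Zfp146, chr7:30169842-30169890, plus strand, GRCm38.p6: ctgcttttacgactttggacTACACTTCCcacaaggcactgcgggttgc
Zfp260, chr7:30095028-30095076, minus strand, GRCm38.p6: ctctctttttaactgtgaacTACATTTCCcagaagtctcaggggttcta
Zfp317, chr9:19621849-19621897, plus strand, GRCm38.p6: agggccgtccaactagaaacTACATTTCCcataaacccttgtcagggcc
Zfp605, chr5:110110050-110110098, minus strand, GRCm38.p6: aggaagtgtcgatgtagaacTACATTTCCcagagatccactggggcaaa
Zfp606, chr7:12478263-12478311, plus strand, GRCm38.p6: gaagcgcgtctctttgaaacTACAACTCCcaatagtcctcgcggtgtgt
Zfp932, chr5:109996306-109996354, plus strand, GRCm38.p6: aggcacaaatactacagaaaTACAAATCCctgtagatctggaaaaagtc
The motif was followed by c in all 7 windows, and it was preceded by ac, the opening letters of the site described next, in all of them but that of Zfp932. The members not shown, Zfp358 and Zfp692-ps, also had ac before and c after it. The centre of the match lay at position -8 from the start in Zfp14, -18 in Zfp605 and Zfp606, -24 in Zfp260, -125 in Zfp146, -180 in Zfp932 and -218 in Zfp317. The promoter of Zfp317 held the motif a second time, at position -174.

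The opening of the same site, ACTACA, which overlaps TACANNTCC at its last 4 letters, stood in 16 of the 71 promoters (22.5%), against 10.1% for genes of the table and 10.7% for all promoters. The GC box GGGCGG was in 56.3%, 67.3% and 35.9% of the same groups, the ETS core CCGGAA in 29.6%, 28.0% and 15.2%, and CCAAT in 43.7%, 38.9% and 37.9%. The E-box CACGTG was in 4.23%, 10.1% and 7.24%, and the NRF1 motif GCGCNTGCG in 11.3%, 15.0% and 6.59%. For the TATA box TATAAA the shares were 7.04%, 7.04% and 14.2%, and for the AP-1 motif TGANTCA 5.63%, 4.78% and 7.93%. The YY1 motif AAGATGGCG (4.23% of members), the CRE TGACGTCA (4.23%), the E2F motif TTTGGCG (2.82%), the palindrome CTCGCGAG (1.41%) and the X box part GTTGCCATG (0%) were rare in every group. Member promoters had a median GC content of 58.7% and a median observed to expected CpG ratio of 0.73, against 61.7% and 0.78 for genes of the table. A match describes letters in a window and is not evidence of binding.

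**Figure D1:**
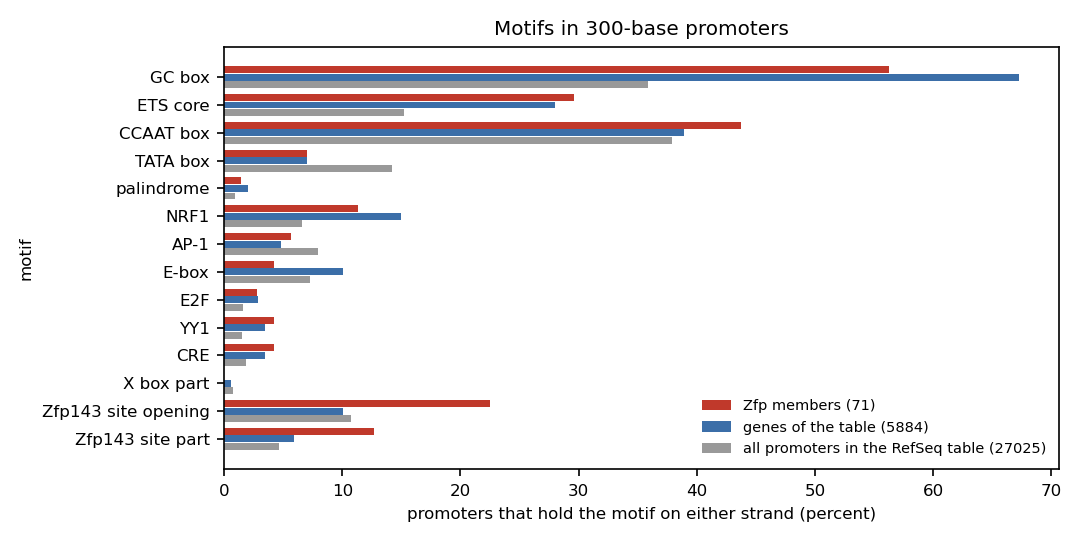
Share of 300-base promoters that hold each of 14 motifs on either strand (percent), for 71 Zfp members, 5884 genes of the table and all 27025 promoters of the RefSeq table. The opening of the Zfp143 site is in 22.5% of member promoters and 10.1% of those of table genes, and the E-box in 4.23% and 10.1%.

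The promoters of 3 members on which the values below turn are printed in full, with matches to any of the 14 motifs in capitals. Zfp207 was the most abundant member across the 6 libraries. Zfp467 had the smallest unadjusted p of all members. Zfp809 was the member that passed as higher once injured replicate 2 was left out.
Zfp207, chr11:80383029-80383328, plus strand, GRCm38.p6: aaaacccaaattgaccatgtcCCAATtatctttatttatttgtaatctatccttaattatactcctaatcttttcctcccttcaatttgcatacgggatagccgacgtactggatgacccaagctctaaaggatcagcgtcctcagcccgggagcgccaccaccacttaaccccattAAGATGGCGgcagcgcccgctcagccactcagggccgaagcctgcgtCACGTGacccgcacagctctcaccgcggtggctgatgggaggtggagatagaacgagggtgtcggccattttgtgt
Zfp467, chr6:48445041-48445340, minus strand, GRCm38.p6: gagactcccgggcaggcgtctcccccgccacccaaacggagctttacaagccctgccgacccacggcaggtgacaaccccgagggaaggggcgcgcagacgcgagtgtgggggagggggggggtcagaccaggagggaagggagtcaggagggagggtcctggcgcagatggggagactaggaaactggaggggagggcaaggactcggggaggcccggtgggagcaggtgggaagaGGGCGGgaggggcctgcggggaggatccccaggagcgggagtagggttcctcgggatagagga
Zfp809, chr9:22225453-22225752, plus strand, GRCm38.p6: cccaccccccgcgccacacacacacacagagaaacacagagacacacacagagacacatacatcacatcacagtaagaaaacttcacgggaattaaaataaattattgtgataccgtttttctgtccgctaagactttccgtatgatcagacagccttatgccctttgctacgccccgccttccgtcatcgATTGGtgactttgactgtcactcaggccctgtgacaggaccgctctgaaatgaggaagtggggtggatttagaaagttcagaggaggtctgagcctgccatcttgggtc
Zfp207 held CCAAT at position -227, the YY1 motif at -69 and the E-box at -23. Zfp467, with a GC content of 69.7%, held a GC box at -10. Zfp809, with 49.3%, held CCAAT on the opposite strand at -57. None of these 3 promoters held TACANNTCC.

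Most members were expressed at low to moderate levels. The median of their mean levels was 6.20 FPKM, against 8.69 FPKM for all genes of the table. A mean of at least 20 FPKM was reached by 6 of the 97 members (6.19%) and by 21.1% of all genes, and a mean under 5 FPKM was found for 34 members (35.1%) and 27.3% of all genes. No member was listed at 0.001, the smallest value that the table holds, in any library. Depth in reads was unknown, so no counting error could be given for low values. The summed FPKM of all genes lay between 164265 and 231755 per library.

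**Figure D2:**
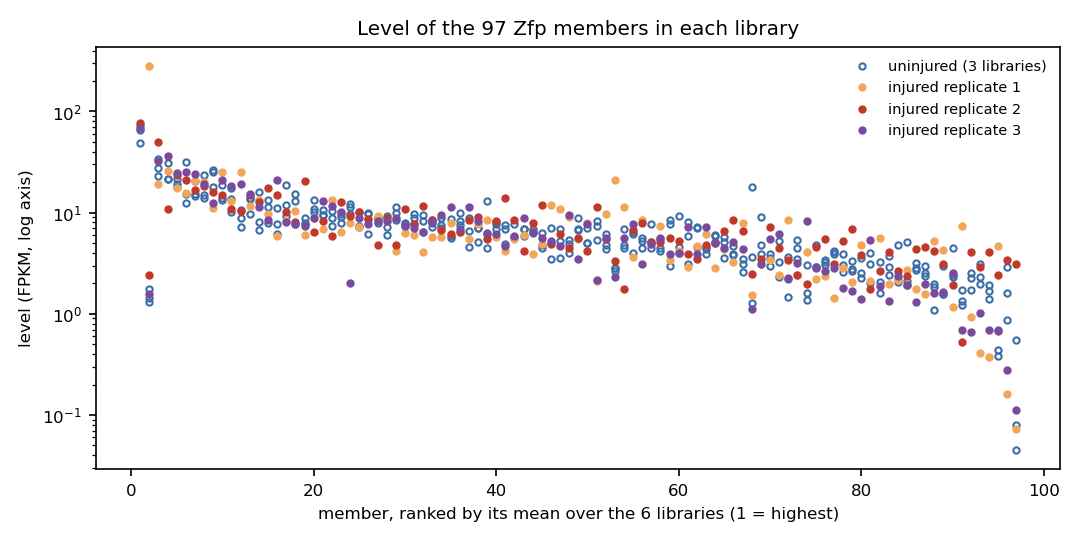
Level of each of the 97 Zfp members in each of the 6 libraries (FPKM, log axis), with members ranked by their mean. Points are single libraries, and injured replicate 1 of the member at rank 2, Zfp825, stands at 280 FPKM while its other libraries lie between 1.31 and 2.40.

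The label of the sort was checked against markers of horizontal basal cells and of other cells. Trp63, the transcription factor that defines these cells, was at 179 ± 19.9 FPKM (SD, n = 3) in uninjured and 117 ± 20.9 (n = 3) in injured libraries. The 6 listed of 8 markers of these cells summed to between 259.7 and 296.6 FPKM in uninjured libraries and to 261.1, 169.8 and 346.3 FPKM in injured replicates 1, 2 and 3. Of 7 marker symbols of globose basal and neuronal precursor cells 6 were listed, and all 6 were higher in injured replicate 2 than in any uninjured library. Their summed level was 160 FPKM in that library, between 21.1 and 28.4 in uninjured libraries and 21.9 and 27.3 in the other injured ones. Gap43, a growth protein of immature neurons, made up most of the sum of injured replicate 2, at 113 FPKM, against 5.06, 13.1 and 12.0 in uninjured libraries and 2.44 and 2.76 in the other injured ones. Without Gap43 the remaining 5 markers summed to 16.0, 15.4 and 15.0 FPKM in uninjured replicates 1 to 3 and to 19.4, 47.3 and 24.5 in injured replicates 1 to 3, highest in replicate 2 but above the uninjured range in all 3. In 3 of the 6 markers every injured library lay above the uninjured ones. Of 9 mature neuron symbols 7 were listed, with a summed level of 435 to 748 FPKM in uninjured libraries and of 146, 361 and 126 FPKM in injured replicates 1, 2 and 3. In 4 of these 7 every injured library lay below the uninjured ones, and in 0 above. Gland and secretory markers (4 listed of 7), led by Plunc, summed to between 4377 and 6348 FPKM in uninjured libraries and to 6660, 2014 and 4552 in injured ones. This is far above the sum of the horizontal basal cell markers, among which Krt14 and Krt15 were not listed. The sums depend on which symbols are listed and do not give shares of cells. Sustentacular markers (5 of 8), led by Krt18, summed to 308.9 to 364.9 FPKM and to 512.9, 223.4 and 664.9. In 2 of these 5 every injured library lay below the uninjured ones, and in 0 above. Ciliated markers (2 of 4) summed to 14.4 to 27.04 and to 14.4, 20.2 and 11.6. The sum of fibroblast markers (3 of 5) was lower in every injured library, at 126.2 to 220.0 FPKM and 101.0, 77.7 and 32.8. That of immune markers (3 of 6) was lower too, at 71.0 to 169.3 and 60.4, 44.9 and 57.9. In each list only 1 of the 3 markers had every injured library below the uninjured ones. No endothelial or ensheathing glia marker searched was among the entries. The part of these other cell types in the members' values was not tested. In bulk libraries fewer cells of a type and less RNA per cell cannot be told apart. Xist, transcribed from the inactive X chromosome of females, was at 29.4 ± 3.82 FPKM in uninjured and 0.324 ± 0.249 in injured libraries (limma adjusted p = 0.000223), so injury and the sex of the pooled animals cannot be told apart. Injured replicate 2 stands apart, and some results that rest on it are given with and without it.

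The comparison of injured with uninjured cells asks which Zfp genes differ 18 h after the lesion. None of the 96 members tested, those with a mean of at least 1 FPKM, rose or fell at a limma adjusted p under 0.05. The lowest adjusted p of any member was 0.365. Over all 7987 genes tested the share called was 0% higher and 0.0125% lower, and the 1 gene called was Xist. At an unadjusted p under 0.05, 2 members were higher (Zfp809 and Zfp236) and 2 lower (Zfp467 and Zfp185), where 7.15% of all genes were higher and 4.04% lower. The members' changes had a median of 0.04 on the log2(FPKM + 1) scale, on which low genes change less than in FPKM, and all genes tested had a median of 0.16. Of the 96 members 51 (53.1%) had a positive change, against 62.9% of all genes. These medians moved to -0.11 for members and -0.01 for all genes after upper-quartile scaling. Positive changes were then found in 31 members (32.3%), against 48.8% of all genes. After quantile normalization the medians were -0.07 and 0.01, and 36 members (37.5%) were positive, against 50.9% of all genes.

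Complete separation of the libraries was seen for 12 members. In 3 of 96 (3.12%) all injured libraries lay above all uninjured ones, against 12.0% of all genes, and in 9 (9.38%) they lay below, against 6.75%. Without injured replicate 2 the 2 remaining injured libraries lay above in 10 members (10.4%), against 29.7% of all genes, and below in 25 (26.0%), against 14.4%. Fewer libraries separate more easily, so these counts are comparable with the shares of all genes but not with the counts over 6 libraries. With injured replicate 2 left out 1 member rose, Zfp809, and 1 fell, Zfp385b, against 3.52% of all genes higher and 1.17% lower. The members' median change was then -0.05 and that of all genes 0.18. These counts describe the list and were not tested against other lists.

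**Figure D3:**
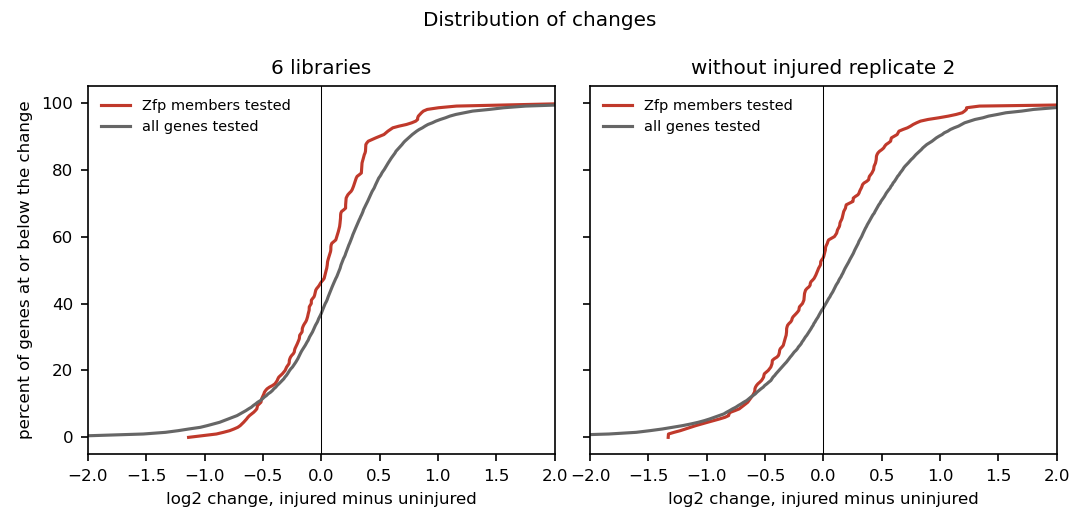
Percent of genes at or below each log2 change (log2(FPKM + 1), injured less uninjured) for the Zfp members tested and for all genes tested, with 6 libraries on the left and without injured replicate 2 on the right. The members' curve lies left of that of all genes around the middle, with medians of 0.04 and 0.16 on the left and of -0.05 and 0.18 on the right.

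The injured libraries did not move the members in the same way. Relative to the uninjured mean of each gene, the members' median deviation was -0.19 in injured replicate 1, 0.18 in replicate 2 and -0.07 in replicate 3. For all genes the median deviations were 0.14, 0.01 and 0.18. Injured replicate 2 was the highest of the 6 libraries for 28 of 96 members (29.2%) and for 20.3% of all genes. Injured replicate 1 was the lowest for 33 members (34.4%) and for 18.2% of all genes. Both held with upper-quartile scaling (30.2% against 22.2%, and 38.5% against 23.4%) and with quantile normalization (26.0% against 21.4%, and 34.4% against 22.1%). In 21 of 96 members (21.9%) injured replicates 1 and 3 lay below the uninjured mean and replicate 2 above it, against 11.4% of all genes. The opposite arrangement was found in 8 members (8.33%) and 19.5% of all genes. The precursor markers above were high in the same library, and their part in these member values was not tested.

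**Figure D4:**
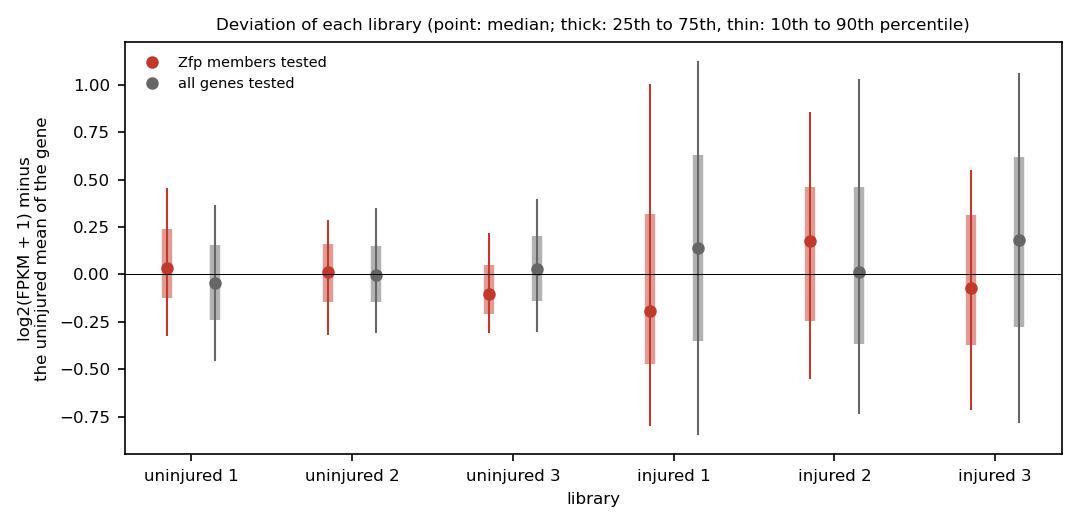
Deviation of each library from the gene's mean over uninjured libraries, on the log2(FPKM + 1) scale, for the 96 Zfp members and the 7987 genes tested. Points are medians, thick bars the 25th to 75th and thin bars the 10th to 90th percentile, and the members' median is -0.19, 0.18 and -0.07 in injured replicates 1, 2 and 3.

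Several members showed this arrangement plainly. Zfp385b, a relative of the p53 cofactor Zfp385a, was at 5.32, 8.31 and 7.33 FPKM in uninjured replicates 1 to 3 and at 2.10, 11.3 and 2.17 FPKM in injured replicates 1 to 3. Injured replicates 1 and 3 lay below and replicate 2 above every uninjured library. Its log2 change was -0.67 (SE 0.52, limma adjusted p = 0.633) over the 6 libraries and -1.33 (SE 0.28, limma adjusted p = 0.0470) without injured replicate 2. Zfp423, a partner of the Ebf transcription factors in olfactory neuron development, was at 2.75, 2.66 and 3.31 FPKM without injury and at 2.05, 6.87 and 1.67 after it. Only replicate 2 exceeded the uninjured range, and the other injured libraries lay below it. Its change was 0.04 (SE 0.48, limma adjusted p = 0.984), and -0.45 without injured replicate 2. Zfp386 was at 7.93, 8.93 and 7.76 FPKM in uninjured and at 6.04, 20.5 and 7.31 in injured libraries, and Zfp523 at 4.94, 6.93 and 7.56 and at 4.19, 14.0 and 4.72. Zfp14 was at 1.39, 1.70 and 1.94 FPKM and at 0.378, 4.08 and 0.686. The changes of Zfp386, Zfp523 and Zfp14 were 0.23, 0.05 and -0.23, and -0.27, -0.44 and -0.81 without injured replicate 2. These last 3 and Zfp385b were chosen after their values were seen. Zfp786, the member below the filter, was at 0.0791, 0.0452 and 0.555 FPKM in the uninjured and at 0.0735, 3.08 and 0.111 in the injured libraries, again highest in replicate 2.

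Among members whose libraries separated upward, Zfp236 was at 3.48, 2.59 and 3.08 FPKM in uninjured and at 7.97, 6.64 and 4.33 in injured libraries. Every injured library lay above the uninjured range, with a log2 change of 0.83 (SE 0.33, limma adjusted p = 0.397). Zfp598, the ribosome collision ligase, was at 3.86, 4.58 and 4.42 FPKM and at 6.09, 4.78 and 7.21, where replicate 2 cleared the uninjured range narrowly (change 0.40, SE 0.29, limma adjusted p = 0.609). Zfp397 was at 7.02, 7.03 and 5.15 FPKM and at 7.81, 9.0 and 8.30 (change 0.35, SE 0.26, limma adjusted p = 0.617). None of the 3 passed.

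Downward separation was led by Zfp187, whose current symbol is Zscan26. It was at 11.4, 12.1 and 9.65 FPKM in the uninjured and at 7.87, 9.23 and 2.00 in the injured libraries, with replicate 3 far below the others (change -0.89, SE 0.44, limma adjusted p = 0.490, and a change of -0.33 without injured replicate 3). Zfp467, known to favour adipocyte over osteoblast formation, was at 17.8, 26.2 and 25.4 FPKM without injury and at 11.0, 15.9 and 12.3 after it. All 3 injured libraries lay below the uninjured ones, and the change was -0.77 (SE 0.27, 95% interval -1.38 to -0.17, limma adjusted p = 0.365). Zfp219 was at 8.99, 4.79 and 3.90 FPKM in uninjured and at 3.08, 3.45 and 3.10 in injured libraries, so that the spread lay on the uninjured side (change -0.64, SE 0.35, limma adjusted p = 0.524). Zfp867 was at 4.06 ± 0.129 FPKM (SD, n = 3) and 2.46 ± 0.896 (n = 3), and Zfp839 at 4.42 ± 0.939 and 2.68 ± 0.431. Zfp672 was at 7.51 ± 1.23 and 4.88 ± 1.19 FPKM, Zfp862 at 11.4 ± 1.64 and 8.06 ± 1.44, and Zfp827, which recruits a chromatin remodelling complex, at 5.67 ± 0.488 and 4.27 ± 1.24. The ninth such member, Zfp146, named although it lies outside the rule for named genes, was at 8.59 ± 1.23 and 6.57 ± 0.266. The limma adjusted p of these 6 members lay between 0.505 and 0.659.

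**Figure D5:**
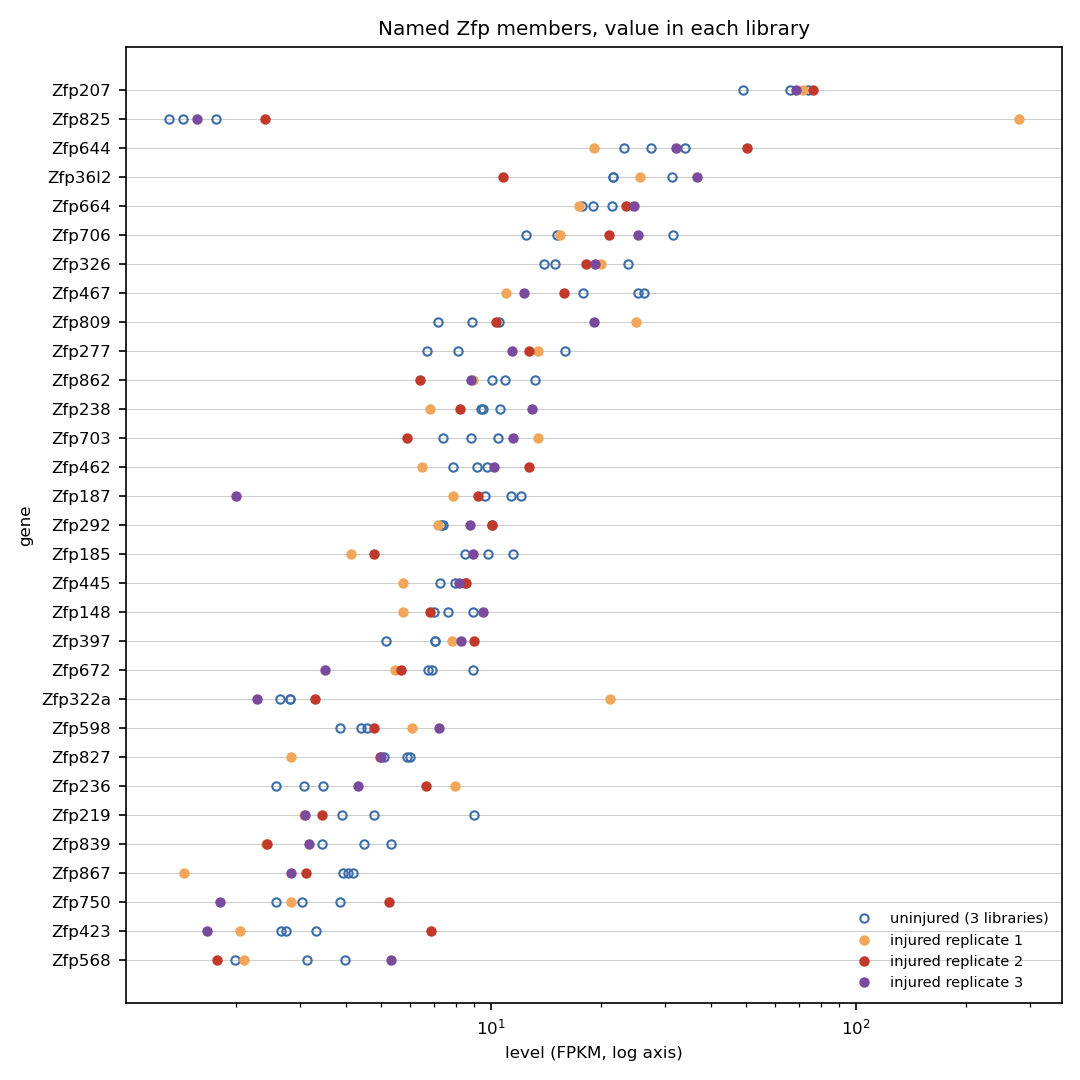
Value of 31 named Zfp members in each library (FPKM, log axis), with open circles for the 3 uninjured libraries and filled circles for the injured ones. Zfp236, Zfp598 and Zfp397 have every injured library to the right of the uninjured ones, and Zfp467 has every injured library to the left.

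None of the 6 most abundant members separated the groups. Zfp207 was at 65.8, 49.0 and 73.8 FPKM in uninjured and at 71.5, 76.4 and 68.5 in injured libraries. The groups overlapped, and the change was 0.21 with a 95% interval of -0.42 to 0.84 (limma adjusted p = 0.793). Zfp825 came next by its mean only because of a single library, with 1.43, 1.77 and 1.31 FPKM in uninjured libraries and 280, 2.40 and 1.57 in injured ones. Its change of 2.44 had an SE of 1.94 (limma adjusted p = 0.658) and was 0.25 without injured replicate 1. Zfp644, which works with the histone methyltransferases G9a and GLP, was at 27.5, 34.1 and 23.2 FPKM and at 19.1, 50.4 and 32.2, with the lowest and the highest value both in injured libraries (change 0.17, SE 0.36, limma adjusted p = 0.876). Zfp664 was at 19.4 ± 1.86 FPKM (SD, n = 3) and 21.8 ± 3.84 (n = 3), and Zfp706 at 19.7 ± 10.3 and 20.6 ± 4.88. Among the members ranked 4 to 8 neighbouring means differed by less than their spread over libraries.

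The family of Zfp36, which marks messenger RNAs with AU-rich elements for decay, had 1 entry among the members. Zfp36l2 was at 31.3, 21.7 and 21.6 FPKM in the uninjured and at 25.6, 10.8 and 36.6 in the injured libraries. Replicate 2 was the lowest and replicate 3 the highest of the 6, and the change was -0.16 (SE 0.41, limma adjusted p = 0.901), or 0.31 without injured replicate 2. Of 25 genes of this decay pathway, such as the CCR4-NOT deadenylase, 20 were listed and tested. None of the 20 passed in either direction. In 2 (10.0%, against 12.0% of all genes) the injured libraries lay above and in 1 (5.0%, against 6.75%) below the uninjured ones, and the list's median change was 0.10, or -0.06 with upper-quartile scaling and -0.02 with quantile normalization. The 8 members of the list of RNA and ribosome proteins included none that passed, and 7 of the 8 had a positive change, with a median of 0.16 like that of all genes. After upper-quartile scaling 3 of the 8 (37.5%, against 48.8% of all genes) were positive. Zfp326, which links RNA polymerase to splicing, was at 17.6 ± 5.39 and 19.2 ± 0.940 FPKM. Zfp622, which acts in maturation of the large ribosomal subunit, was at 7.52 ± 1.72 and 8.43 ± 0.301.

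Silencers of retroelements and imprinted genes were represented by 4 of 8 listed symbols. Zfp809, which binds the primer binding site of murine leukaemia viruses and recruits Trim28, was at 8.89, 10.5 and 7.18 FPKM in uninjured libraries. In injured replicates 1 to 3 it was at 24.9, 10.3 and 19.1 FPKM, so that replicate 2 lay within the uninjured range and the others well above it. The change was 0.89 (SE 0.33, limma adjusted p = 0.380) over 6 libraries and 1.23 (SE 0.24, limma adjusted p = 0.0426) without injured replicate 2. Zfp445, which keeps imprinted genes methylated, was at 7.92 ± 0.622 and 7.49 ± 1.52 FPKM. Zfp568, known from repression of a placental Igf2 promoter, was at 3.97, 3.14 and 2.00 FPKM in uninjured and at 2.11, 1.77 and 5.32 in injured libraries. Zfp932 was at 2.31 ± 0.838 and 3.40 ± 2.01. The change of Zfp445 was -0.09 with a 95% interval of -0.67 to 0.50, and that of Zfp568 was -0.06 with an interval of -1.07 to 0.96.

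Most genes on a list of KRAB corepressors and other chromatin and DNA methylation genes had positive changes, but none passed. Of 18 symbols 13 were tested, with a median change of 0.36 over the 13. A positive change was found in 11 (84.6%, against 62.9% of all genes), and in 5 (38.5%, against 12.0%) every injured library lay above the uninjured ones. These 5 were Trim28, Setdb1, Dnmt1, Uhrf1 and Hdac2. Trim28 was at 14.0, 16.3 and 15.2 FPKM in uninjured and at 22.1, 16.9 and 29.4 in injured libraries (change 0.53, limma adjusted p = 0.493). Setdb1 was at 5.06, 5.39 and 4.97 FPKM and at 5.90, 8.11 and 7.09 (change 0.38, limma adjusted p = 0.598). Dnmt1, the maintenance DNA methyltransferase, had the lowest adjusted p of the list, at 5.95 ± 0.634 and 12.2 ± 2.59 FPKM (change 0.91, limma adjusted p = 0.288). Of the list 2 had negative changes. Hdac1 was at 26.6 ± 8.89 and 18.5 ± 7.88 FPKM (change -0.55, limma adjusted p = 0.599), and the change of Dnmt3a was -0.03. Under upper-quartile scaling 10 of the 13 (76.9%, against 48.8% of all genes) were positive, with a median of 0.18.

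Members with roles in epithelia and in stem or neural cells did not pass. Zfp750, which acts below p63 in epidermal differentiation, was at 3.86, 3.04 and 2.57 FPKM in the uninjured and at 2.83, 5.25 and 1.81 in the injured libraries. Replicate 2 lay above and replicate 3 below the uninjured range, with a change of -0.02 and a 95% interval of -0.95 to 0.91. Zfp185, the LIM protein of the cytoskeleton, was at 11.5, 9.81 and 8.51 FPKM and at 4.14, 4.79 and 8.94, where only replicate 3 entered the uninjured range (change -0.71, SE 0.31, limma adjusted p = 0.442). The corepressor Zfp703 was at 8.89 ± 1.55 and 10.3 ± 3.92 FPKM. Zfp322a, linked to pluripotency, was at 2.81, 2.82 and 2.65 FPKM in uninjured and at 21.2, 3.30 and 2.29 in injured libraries, with replicate 1 alone far above the rest. Zfp148 was at 7.86 ± 1.01 and 7.35 ± 1.94 FPKM. The neural regulators Zfp238, now named Zbtb18, and Zfp462 were at 9.85 ± 0.656 and 9.34 ± 3.22 and at 8.92 ± 0.938 and 9.79 ± 3.12 FPKM. Of the 11 chromatin and ubiquitin members none passed, and among them Zfp277, a partner of Polycomb, was at 10.3 ± 5.01 and 12.5 ± 1.02 and Zfp292 at 8.26 ± 1.58 and 8.66 ± 1.47.

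Of the members 4 are X-linked, which bears on the Xist difference between the groups. Besides Zfp185 they were Zfp280c, at 6.74 ± 1.63 FPKM in uninjured and 8.46 ± 2.61 in injured libraries, Zfp275, at 6.55 ± 0.598 and 6.36 ± 2.35, and Zfp711, at 3.03 ± 1.56 and 2.39 ± 0.248. Of these 4, 1 had a positive and 3 a negative change, and none passed.

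The motif and the position of members gave further descriptions. The 9 members whose promoter holds TACANNTCC had changes from -1.14 to 0.35 with a median of -0.27, and 7 of the 9 were negative. The 61 tested members with a promoter but without the motif had a median of 0.12. Without injured replicate 2 the medians were -0.57 and 0.01, and after upper-quartile scaling -0.40 and -0.03. The motif was chosen after the values were seen, so these medians only describe the list. A link between motif and change was not tested. The lowest of the 9 was Zfp605, at 1.28, 3.61 and 17.8 FPKM in uninjured and at 1.54, 2.45 and 1.12 in injured libraries, where the difference rested on uninjured replicate 3. Zfp146 was the only one of the 9 whose libraries separated. Zfp317 was at 8.46, 7.68 and 3.0 FPKM and at 3.40, 5.59 and 3.92, and Zfp260 at 8.53 ± 2.05 and 8.36 ± 0.511. In the RefSeq gene order 27 of 96 members lay next to another protein-coding gene with a Zfp symbol. The median change was -0.05 for the 26 of these that were tested and 0.06 for the 69 others, or -0.19 and -0.09 after upper-quartile scaling. The neighbours Zfp568 and Zfp14 differed in their highest library, replicate 3 for Zfp568 and replicate 2 for Zfp14 of the injured libraries. Zfp236 and its neighbour Zfp516 had changes of 0.83 and -0.15, and Zfp445 and Zfp167 of -0.09 and -0.62.

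Other gene families named for zinc fingers gave a comparison outside the Zfp symbols. The Klf, Zbtb, Zc3h, Zscan, Zkscan, Zmynd and Zfhx symbols had 47 tested entries, of which none passed in either direction. In 1 of the 47 (2.13%, against 12.0% of all genes) the injured libraries all lay above the uninjured ones and in 3 (6.38%, against 6.75%) all below. Their median change was 0.11, between the 0.04 of the Zfp members and the 0.16 of all genes, and -0.07 after upper-quartile scaling. The 12 Klf genes had a median of 0.25, the 12 Zbtb genes of 0.09, the 12 Zc3h genes of 0.10 and the 5 Zscan and Zkscan genes of 0.25. The 4 Zmynd genes had a median of -0.07 and the 2 Zfhx genes of -0.26, with no positive change in either list. After upper-quartile scaling the medians were 0.095 for the Klf genes, -0.08 for both the Zbtb and Zc3h genes and 0.11 for the Zscan and Zkscan genes. They were -0.25 for the Zmynd and -0.43 for the Zfhx genes, against -0.01 for all genes. Whether these lists differ from the Zfp members was not tested.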

How the data were processed

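Sorted horizontal basal cells of 3 uninjured and 3 injured pools of mice were compared. The authors deposited 1 table of 8078 entries, taken here as FPKM because the submitters' processing notes name Cuffdiff, with FastQC, TopHat and build mm9, without versions; their filter on entries is not given in the sources used here. Values were changed to log2(FPKM + 1), a log2 scale computed here from the deposited FPKM. Entries with a mean of at least 1 FPKM (7987) were fitted with limma 3.58.1 (R 4.3.3, moderated with trend and robust settings), and p-values were adjusted by Benjamini-Hochberg over all of them with a threshold of 0.05. The fit was tested on simulated data with the same spread for every gene and both groups, and with larger changes than most members had. That test does not show which smaller changes the fit could find. The p-values measure the spread between pooled libraries. FPKM keep no read counts, so depth and counting error are unknown.

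The Zfp members and all lists were chosen with earlier results of these data known, and the motifs after the values were seen. Named were members past the threshold, Zfp36 relatives, the 6 with the highest mean, up to 8 with the largest change in each direction among those whose groups did not overlap, and up to 3 of the most abundant of each of the role lists. Alternatives were a replicate block, each library left out, other filters, a pseudocount of 0.1, upper-quartile scaling, quantile normalization and plain moderation. Promoters came from RefSeq by symbol and were searched with Python 3.11.15; figures were drawn with matplotlib 3.10.9.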

Additional observations from a re-analysis of the deposited data

How the results depend on the processing

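No Zfp member passed in either direction under any alternative that kept all 6 libraries. With 1 library left out the number of members that passed lay between 0 and 1 higher and 0 and 1 lower, and both calls came without injured replicate 2. Over all genes 134 were higher and 87 lower with a replicate block, 3 and 3 with plain moderation, and 0 to 278 higher and 1 to 92 lower with 1 library left out. The number lower was 2 with a pseudocount of 0.1, 3 with upper-quartile scaling and 4 with quantile normalization. Same-numbered libraries deviated with correlations of -0.0892, 0.0677 and -0.0776, and differently numbered ones with -0.0808 to 0.149. With 3 libraries per group these values cannot decide whether the numbers pair libraries. The replicate block called 0 members.

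With upper-quartile scaling the injured libraries all lay above in 1 member (1.04%), against 7.19% of all genes. They all lay below in 14 (14.6%), against 11.4%. Among the 63 members with a mean of at least 5 FPKM they lay below in 5, and the share of all genes at that filter is not given here. With 1 library left out they lay above in 5 to 12 members and below in 10 to 25. Shares of all genes for these counts are given above only without injured replicate 2. Fewer libraries separate more easily, so counts with 1 library left out are not comparable with those over 6 libraries. The median change of the members ranged from -0.05 to 0.07 with 1 library left out. Some named members changed sign. With upper-quartile scaling the changes were -0.014 for Zfp644, -0.030 for Zfp664, -0.038 for Zfp706, -0.022 for Zfp326, -0.040 for Zfp703, -0.088 for Zfp462, -0.11 for Zfp292 and -0.088 for Zfp423. With quantile normalization they were -0.013 for Zfp664, -0.034 for Zfp706, -0.028 for Zfp326, -0.072 for Zfp703, -0.071 for Zfp462 and -0.093 for Zfp292. With a pseudocount of 0.1 Zfp423 was at -0.0054. With 1 library left out the changes ranged from -0.16 to 0.52 for Zfp644, -0.53 to 0.31 for Zfp36l2, -0.11 to 0.52 for Zfp706, -0.35 to 0.067 for Zfp238, -0.078 to 0.46 for Zfp703, -0.11 to 0.32 for Zfp462, -0.041 to 0.20 for Zfp292, -0.18 to 0.072 for Zfp445, -0.28 to 0.037 for Zfp148, -1.77e-05 to 1.38 for Zfp322a, -0.33 to 0.25 for Zfp750, -0.45 to 0.33 for Zfp423 and -0.43 to 0.17 for Zfp568. The causes were not tested.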

Other observations

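Some Zfp symbols stand in the table only within joined entries, where several genes share a value, and these were left out of the members. Of the 131 joined entries 5 hold a Zfp symbol. The joined entry of Zfp960 and Zfp97 was at 8.12, 5.87 and 7.22 FPKM without injury and at 1.73, 2.32 and 2.16 after it. All injured libraries, replicate 2 included, lay below the uninjured ones, with a log2 change of -1.39 (limma adjusted p = 0.181). That adjusted p is below the lowest of any member, 0.365, and the reads of the joined genes cannot be told apart. The joined entry of Zfp868 and Zfp869 was at 18.2, 15.8 and 14.2 FPKM and at 13.4, 12.2 and 12.8, again without overlap (change -0.30, limma adjusted p = 0.641). The entries that hold Zfp59 with Zfp60, Zfp91 and Zfp26 with Zfp426 had changes of -0.46, 0.29 and -0.02.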
